A study of Mus musculus with 2 samples.

Results

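The 6 genes described here are 3 ligands of the tumour necrosis factor family, Tnf, Lta and Ltb, and the receptors that bind them, Tnfrsf1a, Tnfrsf1b and Ltbr. They were taken by gene symbol from the 32285 genes of the count matrices, and each symbol named 1 row. Their transcripts were counted in single leukocytes sorted as live, CD45-positive and CD31-negative from the pancreatic islets of 12-week-old female mice, islets picked by hand after collagenase perfusion and dispersed without enzymes. One library came from NOD mice, the inbred strain that develops autoimmune diabetes, and is called WT NOD. The other is labelled NOD.Cxcl16-/-, the same strain with both copies of Cxcl16, the gene of a transmembrane chemokine, disrupted. The labels do not give the number of mice behind either library, and both libraries share the NOD background, sex and age. With 1 library per group there was no replicate and no test between the groups. All intervals below are 95% exact intervals, Poisson for counts and Clopper-Pearson for shares, and cover counting error only.

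TNF, encoded by Tnf, is made as a trimer in the cell membrane and released by proteolytic shedding. It binds TNFR1, encoded by Tnfrsf1a, which carries a death domain, and TNFR2, encoded by Tnfrsf1b, which has none and responds best to the membrane form. Lymphotoxin alpha, the product of Lta, is secreted as a homotrimer that binds both TNF receptors. With lymphotoxin beta, the membrane-anchored product of Ltb, it forms the heterotrimer bound by the lymphotoxin beta receptor, the product of Ltbr. That receptor drives the alternative NF-kB pathway and is known for the building of lymph nodes and of lymphoid aggregates in inflamed tissue, the infiltrated islets of NOD mice among them.

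The 3 ligand genes lie side by side in the major histocompatibility complex, on chromosome 17 of build GRCm38 (mm10), as annotated by GENCODE M21. Ltb (ENSMUSG00000024399) lies at chr17:35194439-35196320 on the plus strand with 3 exons. Tnf (ENSMUSG00000024401) lies at chr17:35199381-35202007 on the minus strand with 4 exons, and Lta (ENSMUSG00000024402) at chr17:35203165-35205351 on the minus strand, also with 4 exons. Between Ltb and Tnf lie 3060 bases, and between Tnf and Lta 1157 bases, with no other coding gene in either gap. Among the receptors, Ltbr (ENSMUSG00000030339, chr6:125306571-125313885, minus strand, 10 exons) and Tnfrsf1a (ENSMUSG00000030341, chr6:125349362-125362484, plus strand, 10 exons) lie 35476 bases apart on chromosome 6, with Scnn1a between them. Tnfrsf1b (ENSMUSG00000028599, chr4:145213463-145246870, minus strand, 10 exons) lies alone on chromosome 4. In GENCODE M21 the microRNA gene Mir6974 overlaps Lta and Mir6973a overlaps Ltb. Whether this touched any counts depends on the annotation behind the matrices, which is not given in the sources used here.

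The sequences before the 3 ligand genes are printed because these neighbours had different patterns over cell types. They run 5′ to 3′ on each gene's own strand, end at the base before the transcript start, and come from RefSeq's promoter table for the C57BL/6J reference (GRCm38.p6), not from NOD mice. Capitals mark matches on either strand of TATAAA, of GGGCGG and of the NF-kB consensus. The Tnf stretch is chr17:35202008-35202257 (minus strand), the Lta stretch chr17:35205352-35205601 (minus strand) and the Ltb stretch chr17:35194257-35194438 (plus strand, stopped where GENCODE starts the transcript).
Tnf: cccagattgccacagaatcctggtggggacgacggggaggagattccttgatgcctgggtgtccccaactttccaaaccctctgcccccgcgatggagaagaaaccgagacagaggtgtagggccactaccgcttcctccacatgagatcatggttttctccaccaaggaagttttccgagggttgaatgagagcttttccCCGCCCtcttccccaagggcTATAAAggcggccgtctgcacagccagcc
Lta: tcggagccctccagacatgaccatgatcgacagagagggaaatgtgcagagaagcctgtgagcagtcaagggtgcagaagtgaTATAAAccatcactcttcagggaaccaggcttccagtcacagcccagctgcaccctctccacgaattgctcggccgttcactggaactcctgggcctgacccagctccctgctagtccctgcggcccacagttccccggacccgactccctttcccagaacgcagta
Ltb: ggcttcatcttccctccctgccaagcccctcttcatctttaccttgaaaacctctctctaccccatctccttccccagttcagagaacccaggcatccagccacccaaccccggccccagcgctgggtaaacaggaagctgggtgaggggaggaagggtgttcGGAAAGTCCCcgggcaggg
Tnf had TATAAA starting 29 bases before its start and a reverse-strand GGGCGG match starting 49 bases before it. Lta had TATAAA 167 bases before its start, and Ltb had neither but held 1 match to the NF-kB consensus, 87 bases before the RefSeq start. Of the 32851 promoters in that table, in windows of the same length, 12.4% held TATAAA, 32.7% GGGCGG and 7.25% the NF-kB consensus. A stretch without a match says only that these letters are not in this window. Of the receptors, Tnfrsf1b and Ltbr each had 2 GGGCGG matches, and Tnfrsf1a had no match to any of the 3 motifs. The Tnfrsf1a window, taken before the RefSeq start, lies wholly inside the gene as GENCODE draws it.

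The 3' untranslated region of Tnf carries the AU-rich element through which RNA-binding proteins control the stability and translation of this mRNA. Its densest stretch, chr17:35199679-35199708 on the minus strand, is printed with ATTTA in capitals (5 matches, adjoining copies included):
Tnf AU-rich stretch: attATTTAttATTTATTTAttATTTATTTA
The whole region, 767 bases long, had 8 matches of TATTTAT, against 3 in Lta, 1 in Ltbr and 0 in Ltb, Tnfrsf1a and Tnfrsf1b. At least 1 match was present in 26.5% of the 21684 annotated 3' untranslated regions and 5 or more in 0.802%.

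The WT NOD library held 13859 barcodes and 93553185 unique molecular identifiers (UMIs, each standing for 1 captured transcript), and the other 10554 barcodes and 98681133 UMIs. After removal of barcodes with few genes, much mitochondrial RNA or a doublet-like profile, 10894 and 9352 cells were kept, and 8985 (82.5%) and 7877 (84.2%) of them passed the marker gate of 1 cell class. No member of the family was a gating marker, and a class name means cells with that type's marker transcripts, not a sorted population. A pair of classes need care: the leading genes of gated cDC2 (type 2 conventional dendritic cells) included Ifitm1 and Ifitm3 and 1 own marker, Mgl2, and those of migratory dendritic cells included the islet hormone genes Ppy and Pyy beside their own Fscn1 and Cacnb3. T cells with no Cd4, Cd8a or Cd8b1 UMI are a residual class. Cxcl16 transcripts were counted at 103 CPM (UMIs of a gene scaled to a common total of all UMIs) over all barcodes of the WT NOD library, while the library labelled NOD.Cxcl16-/- had them at 102 CPM. In macrophages they stood at 822 and 530 CPM. The labels do not say which part of Cxcl16 was deleted, so 3' counts do not check the label, and no direction below is assigned to the genotype. In what follows, where values are given as a pair, the first is from the WT NOD library, the second from the library labelled NOD.Cxcl16-/-. Levels are CPM of the summed UMIs of a class and are compared within a gene, over classes, not between genes.

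Tnf was highest in macrophages in both libraries and lowest in plasma cells. Macrophages (66 and 173 cells) held 522 and 1481 Tnf UMIs, a level of 724 CPM (664 to 789) and 740 CPM (703 to 779). Migratory dendritic cells stood at 249 CPM (218 to 282) and 266 CPM (238 to 295), cDC2 at 150 CPM (129 to 174) and 178 CPM (163 to 193), and cDC1, the cross-presenting dendritic cells, at 78.1 CPM (63.0 to 95.8) and 125 CPM (109 to 142). From macrophages down through migratory dendritic cells, cDC2, cDC1 and plasmacytoid dendritic cells (70.8 and 77.7 CPM) to CD4 T cells, the values of neighbouring classes did not overlap between the 2 libraries. Monocytes, with 35 and 19 cells too few to enter that order, had 530 CPM (454 to 616) and 345 CPM (273 to 430).

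The lymphoid levels of Tnf were lower. CD4 T cells had 49.4 CPM (44.5 to 54.8) and 43.7 CPM (39.4 to 48.3), CD8 T cells 29.5 and 32.2 CPM, and gamma-delta T cells 31.7 and 43.3 CPM. The ranges of CD4 T, T cells with no coreceptor UMI (44.2 and 42.5 CPM) and gamma-delta T cells each overlapped the next in order. B cells had 21.8 and 19.9 CPM and regulatory T cells 19.8 and 15.3 CPM. NK cells had 2 and 11 Tnf UMIs, too few to place them. Plasma cells had 0 Tnf UMIs, which by the limit of 3 counts allows up to 2.08 CPM, and 9 UMIs (3.20 CPM).

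**Figure D1:**
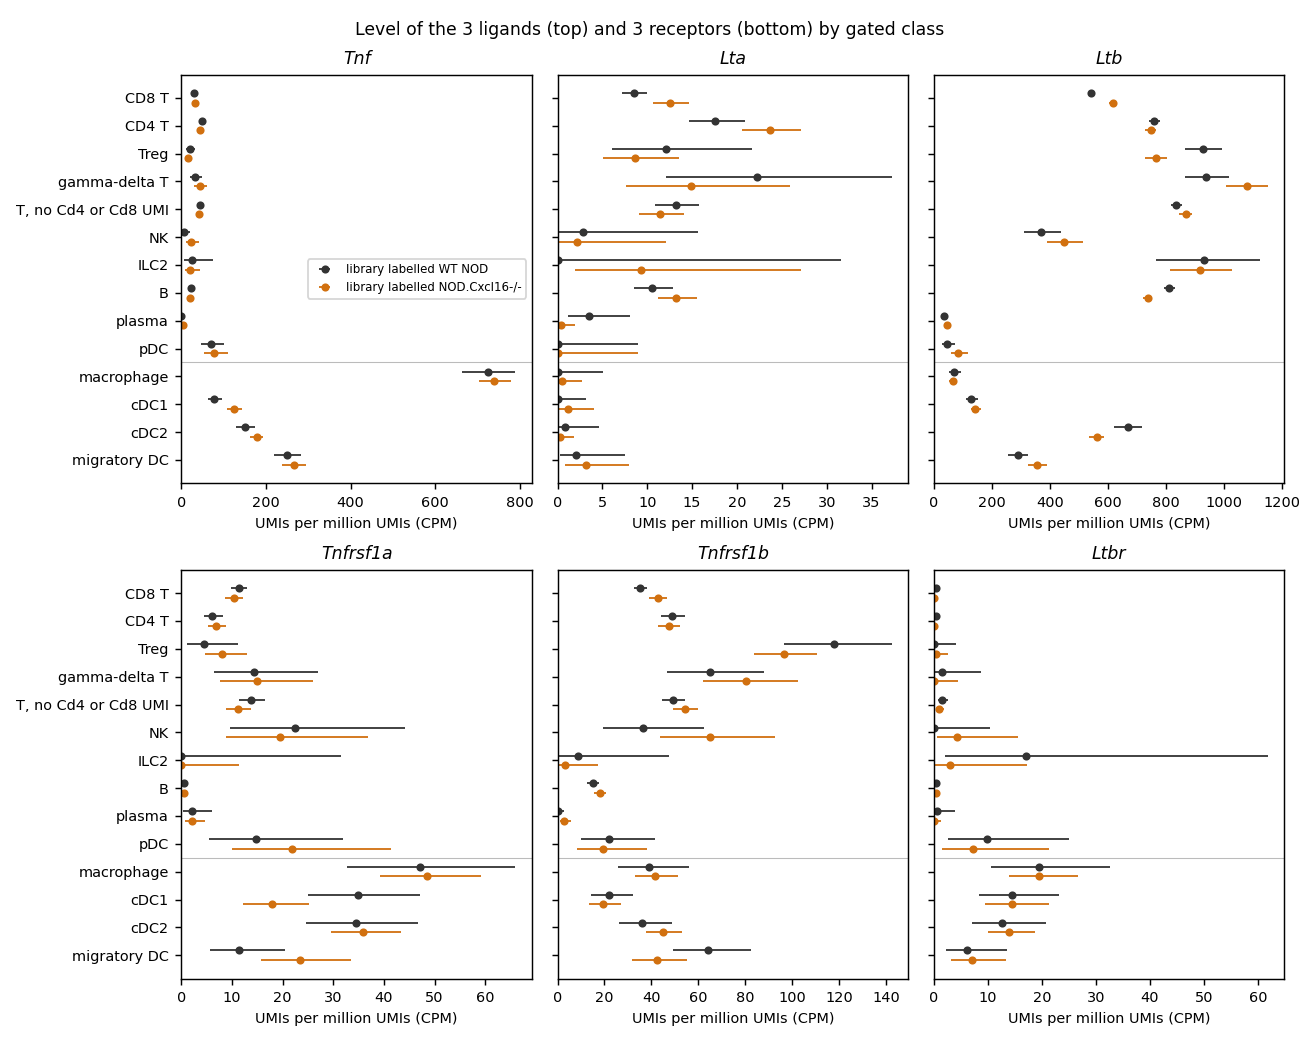
Level of each of the 6 genes (CPM of the summed UMIs, 1 panel per gene with its own scale) in 14 gated cell classes of both libraries, WT NOD and the one labelled NOD.Cxcl16-/-. Bars on the points are 95% exact Poisson intervals, counting error only. The line separates the myeloid classes from the lymphoid classes and plasmacytoid dendritic cells, which belong to neither set. Tnf peaks in macrophages at 724 and 740 CPM, Ltb is high in lymphoid classes and in cDC2, and Tnfrsf1b is highest, among the classes drawn, in regulatory T cells at 118 and 96.4 CPM.

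Tnf was unevenly spread over the cells of a class. The median macrophage held 5 Tnf UMIs in both libraries (quartiles 0.25 to 11 and 1 to 13), the highest held 52 in both, and 17 of 66 and 39 of 173 held none. The top 10% of macrophages by Tnf count held 39.3% and 39.2% of the class's Tnf UMIs. In cDC2 the top 10% held 62.0% and 79.6%, and in migratory dendritic cells 57.5% and 80.0%. In CD4 T cells they held 74.4% and 72.4%, and 1056 of 1277 and 1068 of 1305 cells had no Tnf UMI. Cells of a class differ in depth, so part of this spread is that of total UMIs.

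At an equal depth of 2000 UMIs per cell, 56.9% (43.2 to 69.8) and 60.5% (52.5 to 68.1) of macrophages had a Tnf UMI, with 8 and 11 shallower cells left out. Without thinning the shares were 74.2% and 77.5%. In CD4 T cells the thinned shares were 8.03% and 7.46% (17.3% and 18.2% unthinned, 106 and 31 cells left out) and in B cells 3.23% and 2.91%. Plasma cells, the background class for Tnf, had 0 of 60, which allows a share of up to 5%, and 0 of 104, which allows up to 2.88%. Median depths were 11765.5 and 10750 UMIs in macrophages and 23717 and 26790 in plasma cells. The B cell share is therefore not separated from what the plasma cell count allows at this depth.

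In the WT NOD library T cells together held more Tnf UMIs than macrophages with monocytes, although macrophages had the highest level. In the library labelled NOD.Cxcl16-/- macrophages with monocytes held more than T cells. T cells together held 47.4% and 28.1% of the 2720 and 4151 Tnf UMIs of gated cells. Macrophages with monocytes were 1.12% and 2.44% of gated cells and held 25.4% and 37.6% of the Tnf UMIs. All myeloid classes together held 44.2% and 64.4%, from 3.74% and 7.78% of the cells. Fewer cells of a class and less RNA per cell act alike on such sums, whereas the macrophage level in CPM was nearly equal in the 2 libraries.

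Lta, the lymphotoxin that is both a secreted ligand and the partner of Ltb, was a low transcript carried almost wholly by lymphoid classes: 99.4% of 518 and 98.5% of 663 UMIs of gated cells. CD4 T cells had 129 and 208 UMIs, or 17.6 CPM (14.7 to 20.9) and 23.7 CPM (20.6 to 27.1). B cells had 10.5 CPM (8.52 to 12.9) and 13.2 CPM (11.2 to 15.5), CD8 T cells 8.53 CPM (7.20 to 10.0) and 12.6 CPM (10.7 to 14.7), and gamma-delta T cells 22.2 and 14.8 CPM from 14 and 12 UMIs. CD4 T and gamma-delta T cells overlapped in range, and both lay above T cells with no coreceptor UMI (13.2 and 11.4 CPM). Macrophages had 0 and 1 Lta UMIs and plasmacytoid dendritic cells 0 in both. Migratory dendritic cells had 2 and 4 UMIs, the most of the myeloid classes compared.

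At 2000 UMIs per cell 3.07% and 3.77% of CD4 T cells and 2.07% and 2.56% of B cells had an Lta UMI (7.44% and 8.35% of CD4 T cells unthinned). In macrophages, the background class here, it was 0 of 58, which allows up to 5.17%, and 1 of 162 (0.617%). Lta and Tnf, 1157 bases apart and on the same strand, thus had their highest levels in different classes in both libraries.

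Ltb, the membrane-anchored lymphotoxin, was counted in every class compared and was highest, of these 14, in gamma-delta T cells, at 938 CPM (864 to 1017) and 1078 CPM (1007 to 1152). Type 2 innate lymphoid cells (ILC2) followed at 932 and 916 CPM, from 27 and 67 cells. Regulatory T cells had 929 and 767 CPM, B cells 811 CPM (792 to 830) and 737 CPM (721 to 753) and CD4 T cells 760 CPM (740 to 780) and 747 CPM (729 to 766), and the ranges of these 3 classes overlapped in turn. CD8 T cells were lower, at 542 CPM (531 to 553) and 618 CPM (605 to 632), and NK cells had 370 and 450 CPM. Plasma cells had the lowest level, 34.0 and 44.4 CPM, although they are of the B lineage.

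Among myeloid classes Ltb stood apart in cDC2, at 668 CPM (622 to 716) and 561 CPM (535 to 588), a range that overlapped that of CD8 T cells. Migratory dendritic cells had 289 and 357 CPM, cDC1 130 and 144 CPM and macrophages 70.8 CPM (52.7 to 93.1) and 65.0 CPM (54.3 to 77.1). The median cDC2 held 6 Ltb UMIs in both libraries, and 15 of 96 and 23 of 231 held none. In the same cells the 8 T cell markers summed to 43.6 and 43.7 CPM, against 7396 and 7323 CPM in CD4 T cells, and the 8 B cell markers to 9.23 and 24.3 CPM, against 7452 and 7186 CPM in B cells. In the WT NOD cDC2 the T cell marker Cd3e and the B cell markers Bank1 and Fcer2a were at 0, and in the other library none was. Barcodes that also passed the T or B cell gate had been left out of cDC2, so low sums of these markers follow in part from the gating. Whether RNA of other cells added to the Ltb level of cDC2 was not tested.

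After thinning, 57.9% (47.3 to 68.0) and 53.0% (46.4 to 59.6) of cDC2 had an Ltb UMI (84.4% and 90.0% unthinned, 1 cell left out in each library). The thinned share was 72.4% and 73.9% in CD4 T cells and 73.0% and 71.0% in B cells. In macrophages, the background class, it was 15.5% (7.35 to 27.4) and 8.64% (4.81 to 14.1), and 33.3% and 25.4% without thinning. Median depths were 12151.5 and 12556 UMIs in cDC2, 4182 and 4727 in CD4 T cells and 11765.5 and 10750 in macrophages. By sum, T cells held 72.5% and 66.0% of the 32443 and 35108 Ltb UMIs of gated cells, B cells with germinal-centre B cells 22.5% and 24.7%, and the 3 conventional and migratory dendritic cell classes 3.79% and 6.97%.

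**Figure D2:**
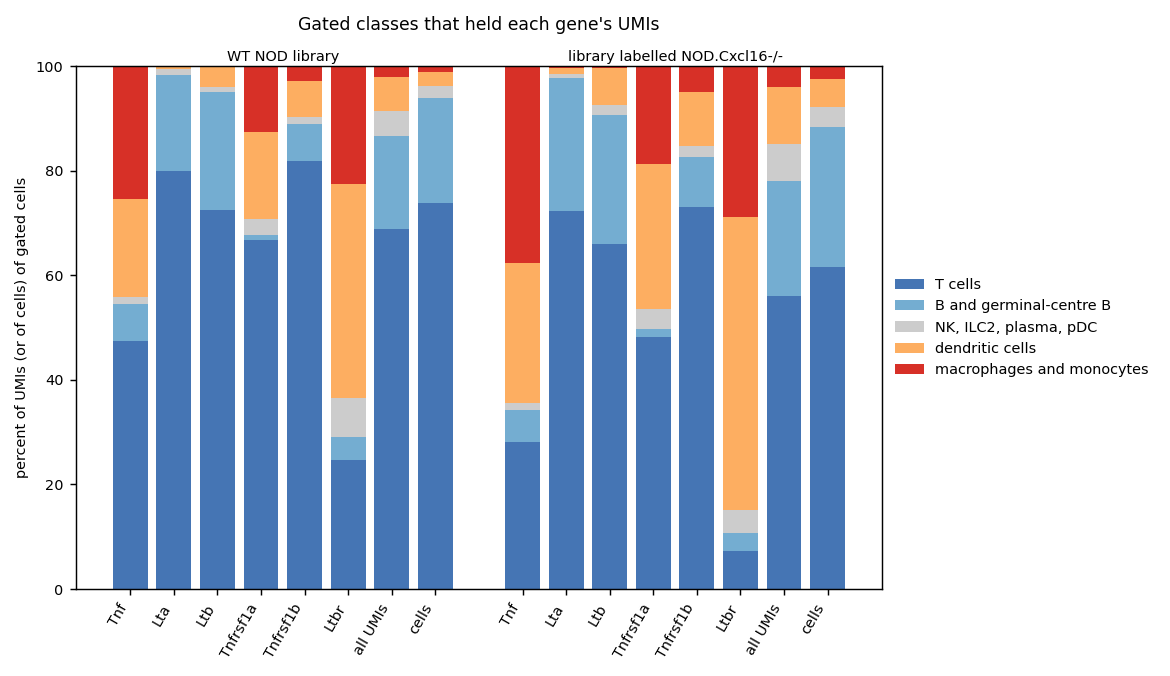
Share of each gene's UMIs in gated cells that came from each of 5 groups of classes (stacked bars, percent), for both libraries, with the shares of all UMIs and of cells for comparison. T cells give 47.4% of Tnf UMIs in WT NOD and 28.1% with the label NOD.Cxcl16-/-, while 99.4% and 98.5% of Lta UMIs are lymphoid and 63.4% and 84.9% of Ltbr UMIs are myeloid.

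Tnfrsf1a, the death-domain receptor that most nucleated cells carry, was close to 0 in B cells here. B cells had 5 and 6 Tnfrsf1a UMIs in 1792 and 2066 cells, or 0.561 CPM (0.182 to 1.31) and 0.536 CPM (0.197 to 1.17), with plasma cells at 2.08 CPM (0.429 to 6.08) and 2.13 CPM (0.782 to 4.64). Macrophages had 47.2 CPM (32.7 to 65.9) and 48.5 CPM (39.3 to 59.1) and cDC2 34.4 CPM (24.7 to 46.7) and 36.0 CPM (29.6 to 43.3). Those 2 classes did not overlap in their library values, although their counting intervals did. Monocytes, outside the order, had 112 and 83.0 CPM.

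Among lymphocytes the highest Tnfrsf1a values were those of NK cells, 22.4 CPM (9.68 to 44.2) and 19.5 CPM (8.89 to 36.9), from 8 and 9 UMIs. These intervals overlapped those of gamma-delta T cells (6.52 to 27.1 and 7.67 to 25.9) and of CD8 T cells, so NK cells are not placed above them. CD8 T cells, with 11.3 CPM (9.79 to 13.0) and 10.3 CPM (8.61 to 12.3), stood above CD4 T cells, with 6.13 CPM (4.47 to 8.20) and 6.83 CPM (5.21 to 8.79), in both libraries, with counting intervals that did not overlap in the first. In ILC2 it had 0 UMIs in both libraries, which with these few cells allows up to 25.7 and 9.29 CPM. At 2000 UMIs per cell a Tnfrsf1a UMI was seen in 6.90% and 11.1% of macrophages, 2.18% (1.60 to 2.90) and 1.69% (1.10 to 2.49) of CD8 T cells and 0.122% (0.0147 to 0.439) and 0.0502% (0.00127 to 0.279) of B cells. Unthinned shares were 40.9% and 38.7% in macrophages and 0.279% and 0.242% in B cells. In plasma cells, the background class, it was 1 of 60 (1.67%) and 0 of 104, too few cells to set a background under the CD8 T cell share, while the CD8 T cell intervals lay above those of B cells in both libraries. Germinal-centre B cells included, B cells were 20.01% and 26.8% of gated cells and held 0.899% and 1.45% of Tnfrsf1a UMIs.

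Tnfrsf1b, the receptor without a death domain, was highest, of the 14 classes compared, in regulatory T cells, at 118 CPM (96.5 to 142) and 96.4 CPM (83.5 to 111). Monocytes, outside the order with 35 and 19 cells, had 78.0 CPM (50.5 to 115) and 127 CPM (84.8 to 182). TNFR2 is known as a costimulatory receptor of regulatory T cells. Gamma-delta T cells followed with 65.0 CPM (46.6 to 88.2) and 80.4 CPM (62.1 to 103), and neither these nor the regulatory T cells overlapped the next class in their library values. Migratory dendritic cells came next, at 64.3 CPM (49.3 to 82.4) and 42.2 CPM (31.7 to 55.1). Counting intervals of gamma-delta T cells overlapped those of migratory dendritic cells in WT NOD and those of regulatory T cells in the other library. The other CD4 T cells had 48.9 CPM (44.0 to 54.2) and 47.5 CPM (43.0 to 52.2), so that the regulatory T cell interval lay above theirs in both libraries. CD8 T cells had 35.2 and 42.7 CPM, and their range overlapped those of macrophages (38.9 and 41.5 CPM) and cDC2 (36.1 and 45.0 CPM). B cells had 15.0 and 18.1 CPM, and plasma cells 0 UMIs, which allows up to 2.08 CPM, and 2.84 CPM.

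Thinned, 18.5% (12.0 to 26.6) and 19.2% (14.1 to 25.1) of regulatory T cells had a Tnfrsf1b UMI, against 10.6% and 9.65% of the other CD4 T cells, 3.23% and 3.76% of B cells and 0 of 60 and 0.962% of plasma cells. Without thinning, 52.8% and 53.0% of regulatory T cells had one, and their median depth was 5869 and 6005 UMIs. Regulatory T cells were 1.37% and 2.75% of gated cells and held 5.70% and 9.12% of the 1877 and 2214 Tnfrsf1b UMIs.

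Ltbr, the receptor of the heterotrimer, was the rarest of the 6 in counts, with 93 and 139 UMIs in gated cells, of which myeloid classes held 63.4% and 84.9%. Macrophages had 14 and 39 UMIs, or 19.4 CPM (10.6 to 32.6) and 19.5 CPM (13.9 to 26.6), cDC1 14.4 and 14.5 CPM and cDC2 12.6 CPM (7.04 to 20.8) and 13.9 CPM (10.1 to 18.8). Migratory dendritic cells had 6.22 and 7.03 CPM. The counting intervals of these myeloid classes overlapped, except those of macrophages and migratory dendritic cells (3.22 to 13.3) in the library labelled NOD.Cxcl16-/-. The lymphoid levels were far lower, with 6 and 1 UMIs in CD8 T cells (0.350 and 0.0800 CPM), 3 and 1 in CD4 T cells (0.409 and 0.114 CPM) and 4 and 5 in B cells (0.449 and 0.446 CPM).

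ILC2 had 2 and 1 Ltbr UMIs, from which no level can be read. At 2000 UMIs per cell 6.90% (1.91 to 16.7) and 3.70% (1.37 to 7.89) of macrophages had an Ltbr UMI (18.2% and 19.1% unthinned). In CD8 T cells it was 0 of 2106, which allows up to 0.142%, and 0 of 1479, which allows up to 0.203%. In B cells it was 1 of 1643 (0.0609%) and 0 of 1994, which allows up to 0.1505%. Median depths were 4626 and 5568 UMIs in CD8 T cells and 4482.5 and 4571 in B cells. The lymphocytes that held most Ltb UMIs thus had few or no Ltbr UMIs, and the cDC2 had both.

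**Figure D3:**
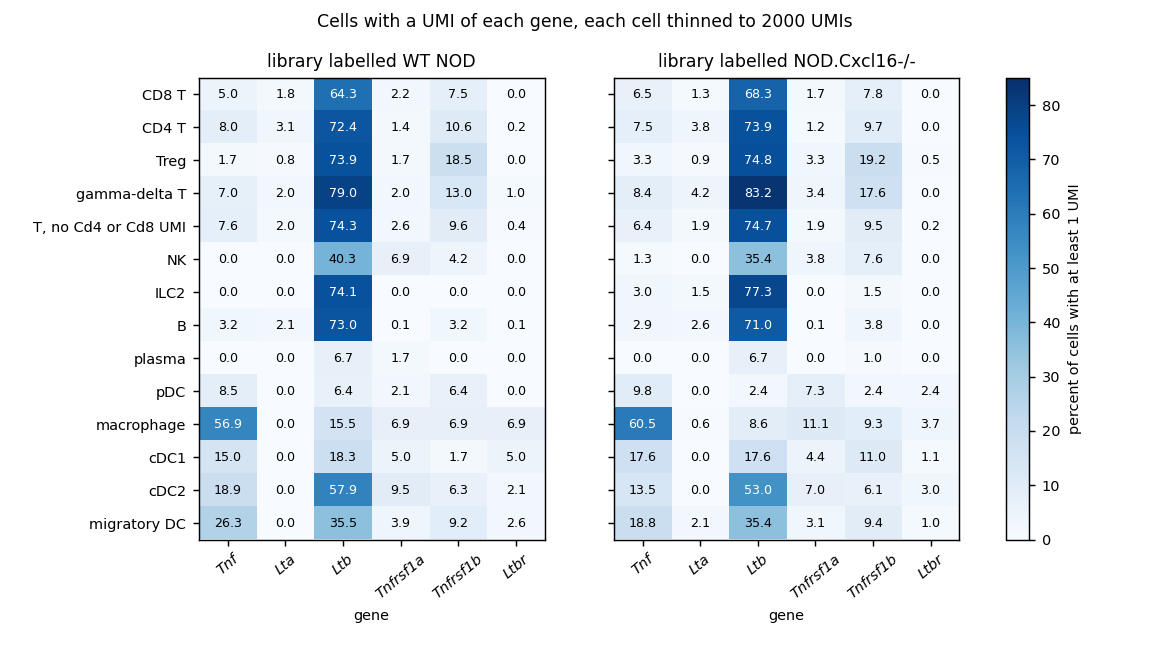
Percent of cells with at least 1 UMI of each gene after each cell was thinned to 2000 UMIs, by class (rows) and gene (columns), 1 panel per library, with the value printed in each cell of the grid. Ltb reaches 72.4% and 73.9% in CD4 T cells and 57.9% and 53.0% in cDC2, Tnf 56.9% and 60.5% in macrophages, and Ltbr 0 in CD8 T cells of both libraries.

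Over whole lineages the members separated into 3 patterns. Levels over the pooled lymphoid classes (T, NK, ILC2, B and plasma cells) were divided by those over the pooled myeloid classes (macrophages, monocytes, cDC1, cDC2 and migratory dendritic cells), within a library. Tnf was 8.42 and 10.5 times higher in myeloid cells, a log2 ratio of -3.07 (-3.18 to -2.96) and -3.39 (-3.48 to -3.30). Tnfrsf1a was 4.39 and 5.06 times higher there (-2.13, -2.40 to -1.86, and -2.34, -2.57 to -2.10) and Ltbr 20.5 and 37.2 times (-4.36, -5.04 to -3.70, and -5.22, -6.02 to -4.49). Lta was higher in lymphoid cells, at a log2 ratio of 4.04 (2.49 to 6.33) from 3 myeloid UMIs and of 3.53 (2.64 to 4.59) from 10. Ltb was 2.30 and 2.21 times higher in lymphoid cells, at 1.20 (1.12 to 1.28) and 1.14 (1.09 to 1.20). Tnfrsf1b was at -0.19 (-0.41 to 0.04) and -0.05 (-0.21 to 0.12), intervals that hold 0.

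At a limit of 2-fold in both libraries, 3 members were thus higher in myeloid cells and 2 in lymphoid cells. Of the 15852 genes with enough counts, 12.3% passed that limit in the myeloid direction and 11.7% in the lymphoid one. The Ltb ratio moved with the gates: it was 1.90 and 1.63 when each gate needed 1 more marker and 0.57 and 0.92 when unsupervised clusters replaced the gates. The Lta ratio of the library labelled NOD.Cxcl16-/- was 1.62 with clusters and 1.90 in thinned cells. The clusters formed other classes than the gates. None was named for monocytes, migratory dendritic cells, regulatory T cells or NK cells, and cDC2 held 451 and 694 cells, against 96 and 231 by gate. With these clusters Ltb was under the 2-fold limit in both libraries, which left Lta as the 1 lymphoid member. The direction of neither was changed by these alternatives.

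Members were also compared within single cells, thinned to 2000 UMIs, over 52 combinations of class, gene pair and library. In 3 of the 52 the counting intervals did not overlap, all in the library labelled NOD.Cxcl16-/-. The pairs compared differed by class, and the same count was not made over other gene pairs. It is therefore not read as a trait of the members or of that library. The intervals treat cells of the same library as independent and do not include the spread between mice. In its CD4 T cells, 10 of 95 cells with a Tnf UMI also had an Lta UMI (10.5%, 5.16 to 18.5), against 3.22% (2.29 to 4.40) of those without. In the WT NOD library that pair was 6 of 94 (6.38%, 2.38 to 13.4) against 2.79% (1.89 to 3.95), with intervals that overlapped. An Ltb UMI was seen in 89.6% (77.3 to 96.5) of CD4 T cells with Lta and 73.2% (70.7 to 75.7) without, and in 90.2% (78.6 to 96.7) of B cells with Lta and 70.5% (68.4 to 72.5) without. In the WT NOD library these were 69.4% against 72.5% in CD4 T cells and 73.5% against 73.0% in B cells. The co-occurrence of Ltb and Lta was thus not seen there. However, the WT NOD intervals with Lta (51.9 to 83.7 and 55.6 to 87.1) overlapped those of the other library. A difference between the libraries was not tested. Among cDC2, 18.2% and 9.84% of cells with an Ltb UMI had a Tnf UMI, against 8 of 40 and 17.6% of cells without.

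For the pattern over classes, each member's log2(CPM + 1) was set against that of 10050 other genes over 28 points, the 14 classes of both libraries. The points share their libraries and classes of unequal depth, so the Pearson coefficients are descriptions. The closest to Tnf were Ube2f (0.947), Slc6a6 (0.931) and Gsdmd (0.928), and to Lta Carmil2 (0.896), S1pr1 (0.881) and Gm49692 (0.864). To Ltb they were H60b (0.925), Nek8 (0.913) and Rapgef6 (0.900). To Tnfrsf1a they were Ccl4 (0.899), Gng5 (0.893) and Rnf149 (0.876), and to Tnfrsf1b Acot9 (0.913), Pfn1 (0.904) and Myh9 (0.902). To Ltbr they were Mitf (0.915), Zfp36 (0.899) and Atf3 (0.883). Among the members the most opposed pair was Lta and Ltbr (-0.781), and the most alike were Tnf and Ltbr (0.696) and Lta and Ltb (0.692). Tnf and Ltb, 3060 bases apart, were at -0.05.

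The pathway around the members was read from 7 lists with 87 genes. The first list, drawn as ligands and receptors that share partners, held 7 genes of or linked to the TNF ligand and receptor families. At least 2-fold higher in lymphoid classes in both libraries were 3 of 7, Cd160, Tnfrsf25 and Tnfrsf10b, and 1 was so in myeloid classes. Tnfsf14 and Tnfrsf14 were in neither group. Cd160, a receptor for the shared ligand-receptor HVEM, reached 71.3 and 106 CPM in gamma-delta T cells, Btla, an inhibitory receptor of the same partner, 205 and 230 CPM in cDC1, and Tnfrsf25, a death-domain receptor, 154 and 55.7 CPM in ILC2. Of 6 genes for shedding, 1 was myeloid and 5 neither. Adam17, the protease that releases TNF, was highest in macrophages, at 157 and 131 CPM, with a log2 ratio of lymphoid over myeloid (1 CPM added) of -0.84 and -1.02. Adam10, a related protease, was highest in NK cells (64.4 and 73.5 CPM), and Frmd8, a partner of the inactive rhomboid proteins that guide ADAM17, in CD8 T cells (38.4 and 33.9 CPM).

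Of 25 genes of proximal signalling, 3 were at least 2-fold higher in myeloid classes, none in lymphoid classes, and the median log2 ratio was -0.10 and 0.01. Traf1, an adaptor of TNFR2 that NF-kB induces, was highest in migratory dendritic cells (1033 and 900 CPM), as was Birc2, a ubiquitin ligase of the receptor complex (524 and 484 CPM). Otulin, a deubiquitinase of linear chains, was highest in NK cells (451 and 305 CPM). Of 14 NF-kB subunits and feedback genes, 7 were higher in myeloid classes and none in lymphoid classes, with a median of -1.15 and -1.03. Nfkbia, the inhibitor that NF-kB itself induces, was highest in migratory dendritic cells, at 2729 and 3661 CPM, as was the subunit gene Rel (1064 and 1122 CPM), and Tnfaip3, the ubiquitin-editing brake A20, in ILC2 (1043 and 873 CPM).

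Of 16 TNF-induced genes, 13 were higher in myeloid classes and none in lymphoid ones, with a median of -2.57 and -2.74. Cxcl2, a neutrophil chemokine, was highest in macrophages, at 4545 and 5920 CPM, Bcl2a1b, a survival gene, in migratory dendritic cells (2666 and 1896 CPM), and Irf1, a transcription factor, in ILC2 (658 and 786 CPM), with a log2 ratio near 0 (-0.02 and 0.04). Of 8 genes linked to the lymphotoxin beta receptor, 2 were myeloid and 1 was lymphoid, with a median of -0.76 and -0.35. Cxcl13, the B cell chemokine, was highest in macrophages and differed there between the libraries, at 1874 and 347 CPM. Tnfsf13b, which encodes BAFF, was also highest in macrophages (43.0 and 87.0 CPM), and Tnfsf11, which encodes RANKL, in ILC2 (248 and 245 CPM). Of 11 genes whose proteins bind AU-rich elements, 1 was higher in myeloid classes and 10 in neither, with a median of 0.45 and 0.52. It was Zfp36, which encodes tristetraprolin and is itself induced with Tnf, at 992 and 784 CPM in macrophages, whereas its relatives Zfp36l1 and Zfp36l2 were highest in ILC2 (906 and 1028 CPM) and NK cells (1028 and 877 CPM). The median over all 15852 genes was 0.23 in both libraries.

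**Figure D4:**
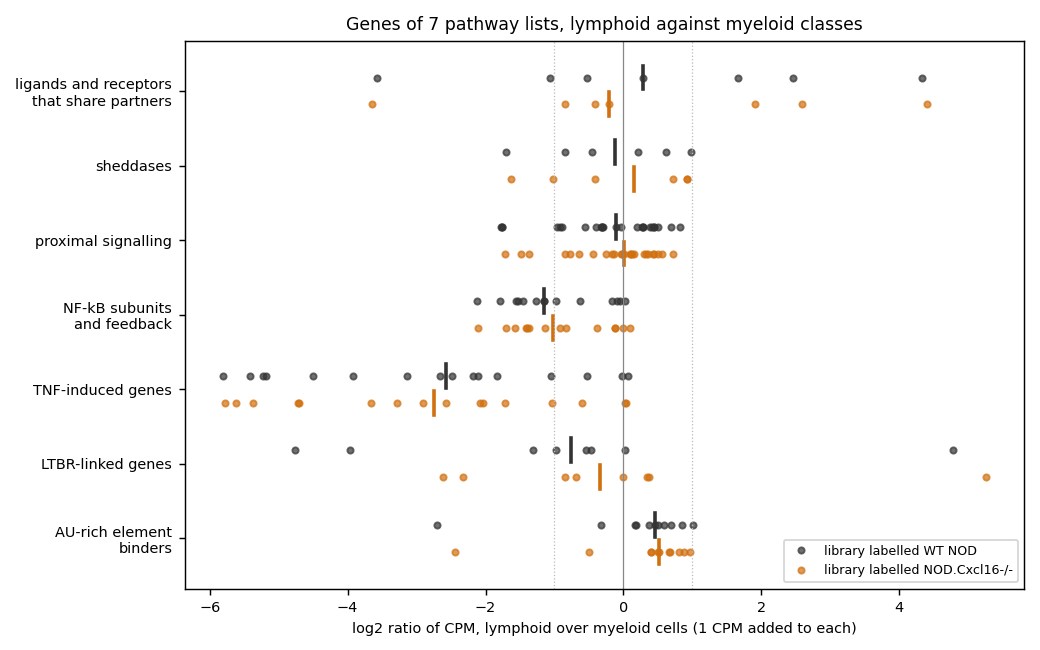
Log2 ratio of lymphoid over myeloid CPM (1 CPM added) of each gene of the 7 pathway lists, by library. Bars mark the list medians and dotted lines a 2-fold ratio. TNF-induced genes lie lowest, with medians of -2.57 and -2.74, while proximal signalling genes centre near 0 at -0.10 and 0.01.

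Between the libraries, 84 pairs of member and class could be formed, and 55 had at least 20 UMIs over both libraries. On the log2(CPM + 1) scale none of these was past 2-fold and 7 were past 1.5-fold, 5 higher and 2 lower in the library labelled NOD.Cxcl16-/-. Among all genes tested the same limit was passed by 4.89% in CD8 T cells, 5.64% in CD4 T cells, 17.3% in regulatory T cells, 20.4% in gamma-delta T cells, 7.25% in T cells with no coreceptor UMI, 21.2% in NK cells and 31.8% in ILC2. It was passed by 5.8% in B cells, 23.3% in plasma cells, 23.3% in plasmacytoid dendritic cells, 21.6% in macrophages, 19.3% in cDC1, 15.9% in cDC2 and 20.4% in migratory dendritic cells. The members' calls all fell in classes of small cell number, where about 1 gene in 5 passed, so their count is read as no more than that background.

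Tnf in cDC1 was higher in the library labelled NOD.Cxcl16-/- by a log2 ratio of 0.67 (0.32 to 1.04), from 78.1 to 125 CPM. The 10 macrophage markers in these cDC1 summed to 218 and 1030 CPM (8 and 9 of them with a UMI, Mrc1 at 0 in both), against 17676 and 21553 CPM in macrophages, and their part in the result was not tested. Ltb in plasmacytoid dendritic cells was higher by 0.86 (0.03 to 1.76), from 19 and 35 UMIs. Tnfrsf1a was lower in cDC1 by a log2 ratio of -0.93 (-1.68 to -0.26) and higher in migratory dendritic cells by 0.98 (0.00 to 2.19), from 11 and 30 UMIs. In thinned cells these 2 Tnfrsf1a ratios and the Ltb one changed sign, to 0.13, -0.32 and -0.21, and that of Ltb also stood at -0.05 with clusters.

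Tnfrsf1b in migratory dendritic cells was lower by a log2 ratio of -0.60 (-1.16 to -0.06). The same class differed in islet endocrine transcripts, which summed to 6843 and 248 CPM over 7 markers (Ppy and Chga at 0 in the second), and whose part in the result was not tested. The other called ratios, Tnfrsf1a in regulatory T cells (0.75, -0.73 to 2.91, from 4 and 17 UMIs) and Tnfrsf1b in NK cells (0.82, -0.15 to 1.89), had intervals that hold 0. The members' counts of classes past the limit were 1 of 11 for Tnf, 0 of 6 for Lta, 1 of 14 for Ltb, 3 of 9 for Tnfrsf1a, 2 of 11 for Tnfrsf1b and 0 of 4 for Ltbr.

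Of the 14 classes compared, macrophages had the highest levels of Tnf and Ltbr. In macrophages Tnf had a log2 ratio of 0.03 (-0.11 to 0.18) and Ltbr of 0.00 (-0.91 to 1.00). Ltb was lower in B cells by a log2 ratio of -0.14 (-0.18 to -0.09), in regulatory T cells by -0.28 (-0.40 to -0.16) and in cDC2 by -0.25 (-0.37 to -0.13), and higher in CD8 T cells by 0.19 (0.15 to 0.23), in gamma-delta T cells by 0.20 (0.05 to 0.35), in T cells with no coreceptor UMI by 0.06 (0.01 to 0.10) and in migratory dendritic cells by 0.30 (0.09 to 0.52). With plasmacytoid dendritic cells, the Ltb interval left out 0 in 5 classes where the value was higher and in 3 where it was lower. Lta was higher in CD4 T cells by 0.41 (0.11 to 0.76) and in CD8 T cells by 0.51 (0.22 to 0.89), and Tnfrsf1b in CD8 T cells by 0.27 (0.11 to 0.45). These differences were under 1.5-fold. Of the 55 intervals, 40 held 0 and 15 did not, and none includes the spread between mice, which 1 library per group cannot give. The same count was not made over all genes, so it is not read as a trait of the members. Counting intervals narrow as UMIs rise, so those of Ltb, the member with the most UMIs, can leave out 0 at small ratios.

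**Figure D5:**
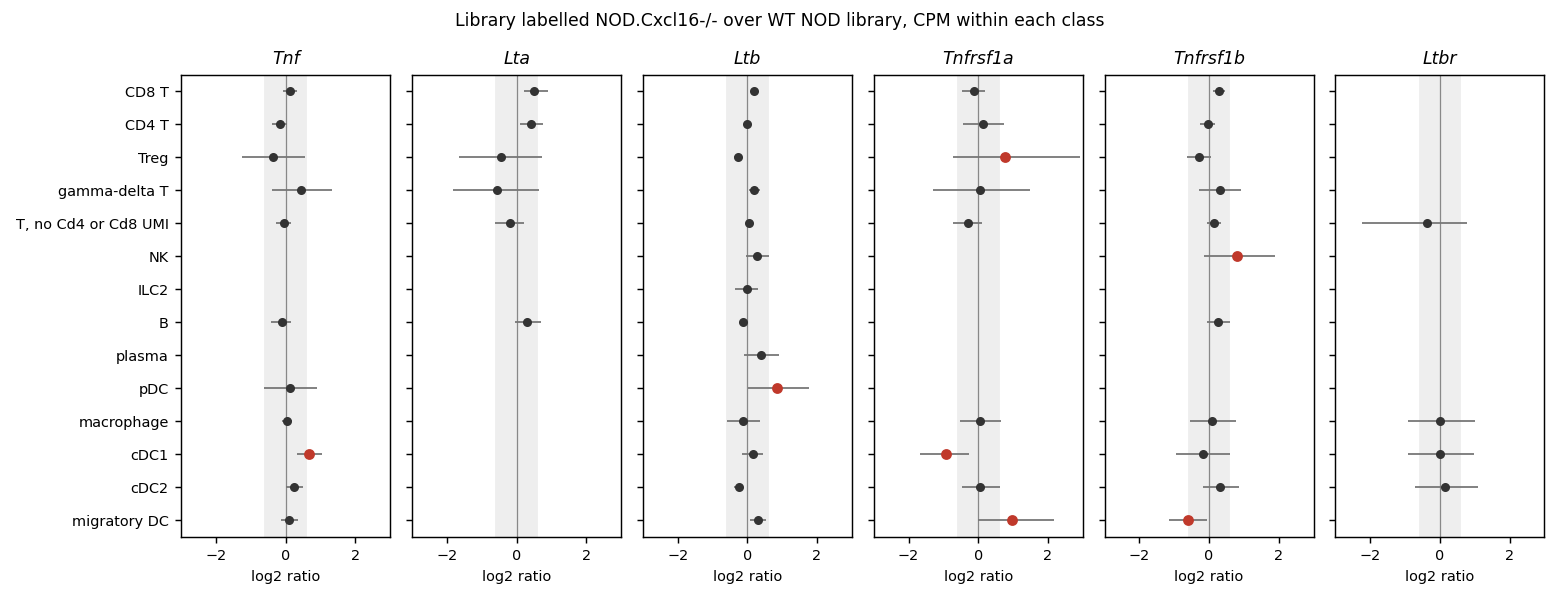
Log2 ratio of CPM (1 CPM added), library labelled NOD.Cxcl16-/- over WT NOD, for each member and class with at least 20 UMIs. Bars are 95% intervals, for counting error only, of the ratio without the added 1 CPM. The grey band is 1.5-fold either way, and red marks the 7 of 55 ratios past it. Tnf in cDC1 is at 0.67 and Tnf in macrophages at 0.03.

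TNF-induced genes were past 1.5-fold higher in the library labelled NOD.Cxcl16-/- for 6 of 10 tested in NK cells, 6 of 10 in plasma cells, 6 of 10 in plasmacytoid dendritic cells (1 lower), 5 of 14 in B cells and 5 of 15 in migratory dendritic cells. Among all genes tested, 11.4% were past that limit upwards in NK cells, 17.4% in plasma cells, 11.2% in plasmacytoid dendritic cells, 3.41% in B cells and 11.9% in migratory dendritic cells. The list had more genes lower than higher in T cells with no coreceptor UMI (0 higher and 3 lower of 15), CD4 T cells (1 and 2 of 15) and regulatory T cells (0 and 1 of 8). Past the limit downwards in these classes were 4.51%, 3.22% and 7.21% of all genes. More were higher than lower in CD8 T cells (4 of 15, against 2.18% of all genes upwards) and cDC1 (4 of 15, 10.6%). The same held for cDC2 (3 of 15, 1 lower, 8.93%), gamma-delta T cells (2 of 9, 14.0%) and ILC2 (1 of 5, 20.6%). Over the classes tested Cxcl2 was higher in 7 and lower in 2, Vcam1, an adhesion molecule, higher in 5, Cxcl10, an interferon-induced chemokine, in 5 (lower in 1), Ptgs2, the prostaglandin synthase COX-2, in 5 (lower in 2), and Ccl2, a monocyte chemokine, and Cxcl1 each in 4 (Cxcl1 lower in 1). The genes just named had their highest level in macrophages. The exception was Ptgs2 in the library labelled NOD.Cxcl16-/-, at 165 CPM there and 189 CPM over the pooled myeloid classes. The list had 1 gene higher and 3 lower of 15 in macrophages, with a median of -0.14 against -0.00 over all genes. In macrophages 12.4% of all genes were past the limit upwards and 9.13% downwards. Macrophage markers summed to 22.4 and 71.3 CPM in NK cells, 55.4 and 90.6 CPM in plasma cells, 320 and 330 CPM in B cells, 325 and 260 CPM in plasmacytoid dendritic cells and 135 and 727 CPM in migratory dendritic cells, with Trem2 at 0 in each of these but the WT NOD migratory dendritic cells, and their part in these counts was not tested. Of the same list, Bcl2a1d was higher in 4 classes, Bcl2l1, an anti-apoptotic gene, higher in 3 and Ier3, an early-response gene, lower in 3.

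Over all 7 lists, 16 of the 79 genes tested in 3 or more classes (20.3%) were past 1.5-fold the same way in at least 3, against 10.3% of the 11895 such genes in the matrices. Outside the TNF-induced list, Traf1 was higher in 4 classes, Traf5, a relative of it, in 3 and Rel in 3, while Fadd, the adaptor that carries the death signal of TNFR1, and Frmd8 were each lower in 3. Nfkbid was lower in 3 and higher in 1, and Cxcl13 higher in 3 and lower in 2. NF-kB subunits and feedback genes passed the limit in none of the 14 tested in macrophages, cDC2, migratory dendritic cells, CD4 T cells and B cells, and in 5 of 13 in plasma cells, all higher, where 17.4% of all genes were past it upwards and 5.89% downwards.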

How the data were processed

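UMI counts per gene and barcode were deposited by the authors as 1 matrix per library, made with Cell Ranger 7.0.1 per the file headers and with build mm10 per the submitters' processing notes. Which annotation was used, and the treatment of intronic reads, are not given in the sources used here. Libraries were 10x 3' single-cell libraries. Barcodes with under 500 genes or over 10% mitochondrial UMIs were left out, as were those with the highest doublet scores (nearest neighbours among 2 simulated doublets per cell, 0.8% per 1000 barcodes). The libraries shared 45 barcodes.

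Cells were gated by how many of a class's markers had a UMI: T 4 of 8, B 4 of 8, plasma 6 of 8, NK 4 of 9, ILC2 4 of 10, gamma-delta T 3 of 7, germinal-centre B 4 of 8, macrophage 5 of 10, monocyte 5 of 10, cDC1 5 of 8, cDC2 4 of 9, migratory dendritic cell 5 of 8 and plasmacytoid dendritic cell 6 of 8. T cells were divided by Cd4, Cd8a, Cd8b1 and regulatory T cell markers. Left out were 13.2% and 8.49% of cells with no gate and 2.88% and 5.70% with gates of 2 lineages. Thresholds were set after the marker counts were seen, and the members and lists were chosen with earlier results of these data known.

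Levels are CPM of a class's summed UMIs. Shares were read in cells thinned to 2000 UMIs. Ratios between the libraries add 1 CPM, need 20 cells per library and 20 UMIs, and count past 1.5-fold. Their intervals are of the ratio with nothing added. Lymphoid over myeloid ratios of the members add nothing. A count of 0 is given with the limit that 3 counts set. Named were the members, the 3 list genes with the highest mean CPM, list genes past 1.5-fold the same way in 3 classes, and the 3 genes of highest Pearson r with each member. Scripts were tested on simulated data. Python 3.11.15, numpy 2.4.6, scipy 1.17.1, pandas 2.3.3, scikit-learn 1.9.0, igraph 0.11.9 and leidenalg 0.10.2 were used.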

Additional observations from a re-analysis of the deposited data

Results flagged for a closer look

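Barcodes outside the classes also held the members. In barcodes with gates of 2 lineages Tnf stood at 199 CPM in the library labelled NOD.Cxcl16-/- and at 142 CPM in the WT NOD library. In barcodes with no gate Tnfrsf1b stood at 48.8 CPM in the library labelled NOD.Cxcl16-/- and at 35.7 CPM in the WT NOD library. Both entered no comparison of the report and were higher than in the WT NOD library. Other members went either way in these barcodes. With no gate, Lta stood at 11.3 and 4.31 CPM (WT NOD first), Ltb at 730 and 549 CPM and Tnfrsf1a at 22.1 and 29.2 CPM. With gates of 2 lineages, Ltb stood at 370 and 305 CPM and Lta at 7.26 and 9.56 CPM. Median depths were 1317 and 2666.5 UMIs with no gate and 5298 and 20125 with gates of 2 lineages.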

How the results depend on the processing

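Of 95 lymphoid over myeloid ratios recomputed under alternatives, 78 moved by less than their counting interval, 17 moved by more and none changed direction. Lta in the WT NOD library gave no ratio in thinned cells, where myeloid classes had 0 UMIs. Without doublet scores the log2 ratio was -2.87 and -3.28 for Tnf, 1.12 for Ltb (WT NOD) and -4.10 for Ltbr (library labelled NOD.Cxcl16-/-, as are the single values that follow). With 1 more marker per gate it was -3.57 for Tnf and 1.90 and 1.63 for Ltb. With clusters in place of gates it was -3.24 for Tnf, 1.62 for Lta and 0.57 and 0.92 for Ltb, and with the mean of each cell's CPM it was 1.34 for Ltb. In thinned cells it was -3.30 for Tnf (WT NOD), 1.90 for Lta, 1.29 and 1.45 for Ltb and -2.67 for Tnfrsf1a. Of 484 ratios between the libraries 433 stayed close, 47 moved and 4 reversed: Ltb in pDC was -0.049 with clusters and -0.21 in thinned cells, and Tnfrsf1a in thinned cells 0.13 in cDC1 and -0.32 in migratory DC. Pairs past 1.5-fold numbered 5 to 10 over 9 alternatives, against 7, and 0 at 2-fold. Clusters gave a value for 44 of the 55 pairs. The cause of these moves was not tested. Depth limits Ltbr most, with 93 and 139 UMIs. No paired analysis was possible because each group has 1 library.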

Other observations

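Germinal-centre B cells, gated in 6 and 48 cells, had Ltb at 1193 CPM (946 to 1485, WT NOD) and 355 CPM (322 to 391, the library labelled NOD.Cxcl16-/-), with 80 and 427 UMIs. The first value rests on 6 cells. They had 30 Tnf UMIs (24.96 CPM) and 21 Lta UMIs (17.5 CPM) in the library labelled NOD.Cxcl16-/-, and 0 and 1 in the WT NOD library. Tnfrsf1b had 6 UMIs and Ltbr 0 in the 48 cells, which allows up to 2.50 CPM of Ltbr by the limit of 3 counts. Monocytes, in 35 and 19 cells, had Ltb at 65.5 CPM in both libraries.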
